A study of Mus musculus with 18 samples.

Results

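The steady-state transcriptome of wild-type spleen monocytes was read from the 3 libraries whose labels give a wild-type (WT) genotype and treatment with phosphate-buffered saline (PBS), 3 of the 18 libraries of the series. The study sorted monocytes from the spleens of mice that lack or carry Dectin-1 and FcgRIIb and sequenced their messenger RNA, with or without intravenous immunoglobulin (IVIg, pooled immunoglobulin G given as a drug). The WT PBS group is of C57BL/6 genotype and its time label is day 3. Of the other groups, WT IVIg (C57BL/6, IVIg), Dectin-1 knockout PBS and FcgRIIb knockout PBS were set beside it, each with 3 libraries and also labelled day 3. The series' design text gives separate animals for the libraries of a group, although the titles of a pair of libraries in each knockout PBS group share a code that the labels do not explain, and another such code is shared by replicate 3 of FcgRIIb knockout PBS and replicate 3 of WT IVIg. No sex or age, no surface marker of the sort and no description of the knockout alleles was given in the sources used here. PBS injection stands for steady state here, and no library of uninjected mice is among the labels.

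Monocytes are phagocytes made in the bone marrow that circulate in blood and are also held in the spleen as a reserve. In mice the classical subset carries Ly6C and the chemokine receptor CCR2 and enters inflamed tissue, and the non-classical subset depends on the nuclear receptor NR4A1, carries CX3CR1 and patrols vessel walls. Their growth factor receptor is CSF1R, their identity rests on transcription factors such as PU.1 (Spi1), and they carry the Fc receptors through which immunoglobulin G acts on phagocytes.

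The 3 WT PBS libraries held 35524848, 45044859 and 38844507 counts in replicates 1, 2 and 3. Levels are given as CPM, the count scaled by library size, and, wherever genes are set beside each other, as CPM per kilobase of the exon length deposited with the counts (CPM/kb). A gene with 3 counts stood at 0.0819, 0.0654 and 0.0723 CPM in these libraries, and this floor covers counting error only. Of the 55416 genes in the table, 31784 had no count in any of the 3 libraries, 11786 averaged 1 CPM/kb or more, 548 averaged 100 or more and 36 averaged 1000 or more. For ranking, mitochondrial genes, gene models named Gm or Rik, genes without a symbol and genes of under 200 exon bases were left out, and 23316 ranked genes remained. Of the genes left out, 11 stood at 1000 CPM/kb or more, of which 9 were under 200 bases long and 6 shared all their exon bases with another gene.

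Replicate 3 stood apart from the other libraries of its group. Over the 8634 genes with a mean of 10 CPM or more, the Spearman correlation of levels across genes was 0.972 between replicates 1 and 2, 0.918 between 1 and 3 and 0.938 between 2 and 3. Of these genes 128 differed over 2-fold between replicates 1 and 2, 679 between 1 and 3 and 449 between 2 and 3. Across all 18 libraries, replicate 3 was most alike to WT IVIg replicate 1 (Spearman 0.982), replicate 1 to Dectin-1 knockout PBS replicate 1 (0.979) and replicate 2 to Dectin-1 knockout IVIg replicate 2 (0.982), so no WT PBS library was closest to one of its own group. Genes are not independent replicates, and these correlations are descriptions of the libraries.

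The departure of replicate 3 ran with gene length. In the tenth of genes with the shortest exons (median 1069.5 bases) the median log2 ratio of replicate 3 to the mean of the other libraries was -0.27, and in the tenth with the longest exons (median 12639.5 bases) it was 0.44. The same ratio ran from 0.14 to -0.31 for replicate 1 and from 0.09 to -0.19 for replicate 2. Replicate 3 was over 2 times both others for 315 genes of a median length of 9723 bases, against 4492 bases for all 8634. Ribosomal protein genes, which are short, took 5.12%, 4.99% and 3.62% of counts in replicates 1, 2 and 3, and mitochondrial genes took 0.899%, 0.875% and 0.652%. The part of this in the levels below was not tested, and where replicate 3 decides a level the mean without it is given.

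**Figure D1:**
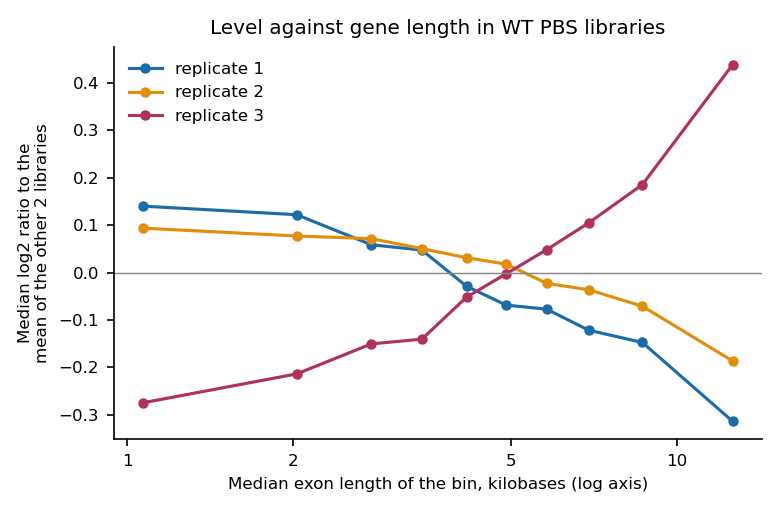
Median log2 ratio of each WT PBS library to the mean of the other libraries of the group (y axis) in 10 bins of genes ordered by exon length (x axis, median of the bin in kilobases, log scale), over the 8634 genes with a mean of 10 CPM or more. Replicate 3 runs from -0.27 in the shortest to 0.44 in the longest genes, and replicates 1 and 2 run the other way.

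The 4 genes taken as markers of the label were all present. Lyz2, Cd74 and Fcgr2b were present in every other group of the series too, and Clec7a was low only in the Dectin-1 knockout groups. Their presence therefore does not set WT PBS apart from the other groups. Lyz2, the lysozyme of macrophages and monocytes, stood at 19655, 15279.7 and 13358 CPM/kb in replicates 1, 2 and 3, and it was first of the 23316 ranked genes. Cd74, the invariant chain that escorts MHC class II molecules, stood at 1283, 2089 and 2048 CPM/kb and was placed 9. Clec7a, which encodes the beta-glucan receptor Dectin-1, stood at 311, 198 and 137 CPM/kb (place 186). Fcgr2b, which encodes the inhibitory Fc gamma receptor FcgRIIb, stood at 35.9, 52.1 and 51.6 CPM/kb (place 999). The libraries keep these 4 genes in the same order, with the lowest level of each above the highest level of the next.

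Of 14 markers of monocytes in general 12 averaged 100 CPM/kb or more, with a median of 439 CPM/kb against 0.127 over all ranked genes, and the lowest was Cd14, part of the receptor for bacterial lipopolysaccharide, at 21.1 ± 1.64 CPM/kb (SD, n = 3). Markers of both subsets were present. Of 15 classical markers 10 averaged 100 CPM/kb or more (median 172 CPM/kb), led by Chil3, a chitinase-like secreted protein, and Plac8, and Ly6c2, which encodes Ly6C, stood at 191, 157 and 151 CPM/kb. Of 20 non-classical markers 9 averaged 100 or more (median 69.8 CPM/kb), led by Tnfrsf1b, a receptor for tumour necrosis factor, at 453 ± 70.5 CPM/kb (SD, n = 3). In RNA of a whole sort, fewer cells of a type and less RNA per cell cannot be told apart. Nor can a mix of both subsets be told from cells that carry both sets of markers.

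Most defining markers of other cells were low or without counts, with exceptions in several lists. T cell markers had a median of 0.655 CPM/kb, with Cd3e of the T cell receptor complex at 0.0991. NK cell markers had a median of 0.293 CPM/kb, B cell markers 0.953, platelet markers 0.0327 and endothelial and stromal markers 0.0116. The neutrophil marker Ly6g stood at 0.147 CPM/kb, while Csf3r, the receptor for the granulocyte growth factor, and Mmp8, a collagenase, stood at 53.4 and 44.2. The mast cell, basophil and eosinophil markers Prg2, Mcpt8, Ms4a2 and Prss34 had no counts. In the B cell list Ighm, the constant region of immunoglobulin M, lay between 93.3 and 140.3 CPM/kb. In the plasma cell list Xbp1, a factor of secretory cells, averaged 129 ± 5.13 CPM/kb, and Igkc, the kappa light chain, stood at 22.4, 60.7 and 33.6. In the red pulp macrophage list the means of Trf, Adgre1 and Hmox1 lay between 80.0 and 157 CPM/kb, and the defining genes Spic and Vcam1 averaged 2.61 and 1.10. The dendritic cell list had a median of 2.02 CPM/kb. Of its 13 members 1 averaged 100 CPM/kb or more, 4 averaged 10 to 100 and 4 averaged under 1. Cd209a stood at 120.2 CPM/kb, Bst2 at 95.6 and Flt3 at 19.9, while Xcr1 stood at 0.149. Of 12 markers of cycling cells 7 averaged under 1 CPM/kb, Mki67 among them at 0.636 (0.0892 without replicate 3), and Pcna was the highest at 40.6. The part of other cells in any level given here was not tested.

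**Figure D2:**
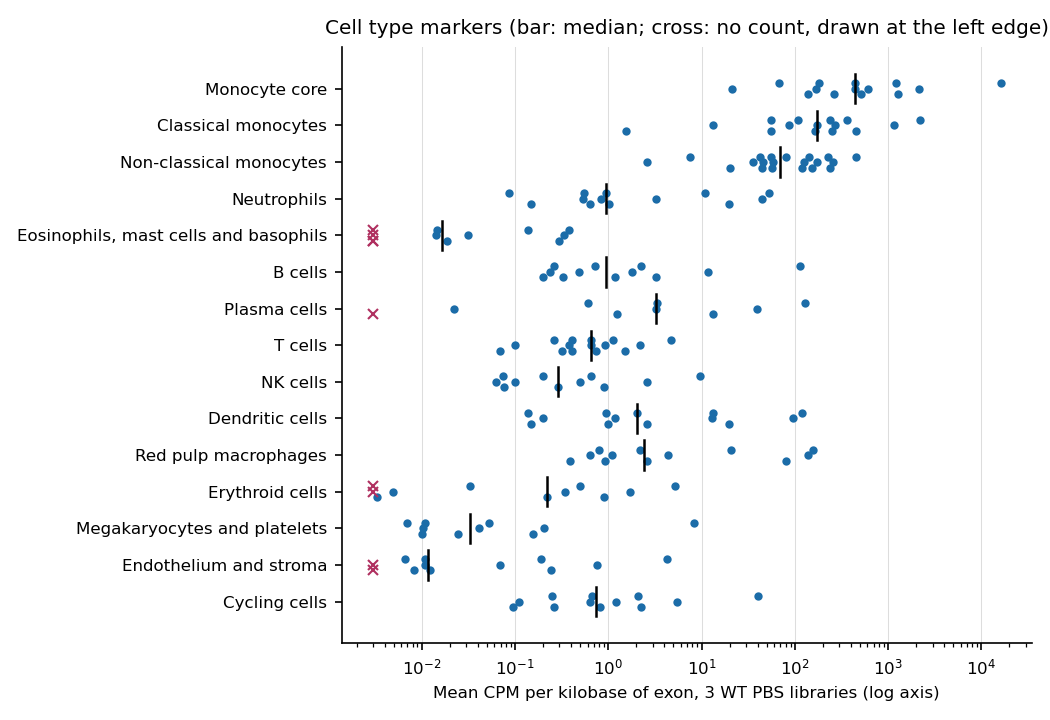
Mean level of each marker gene over the 3 WT PBS libraries (x axis, CPM/kb, log scale) by marker list (y axis); each point is a gene, the bar is the median of the list and crosses are genes with no count, drawn at the left edge. The monocyte lists have medians of 439, 172 and 69.8 CPM/kb, and the lists of other cells have medians between 0.0116 and 3.23.

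Counts were concentrated in few genes. The 10 most counted genes of each library took 7.52% ± 0.868 of its counts (SD, n = 3), the 100 most counted took 22.1% ± 1.39 and the 1000 most counted took 56.9% ± 2.23. Lyz2 alone took 2.67%, 2.05% and 1.88% of counts in replicates 1, 2 and 3. Replicate 1 was the most concentrated and replicate 3 the least.

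The 25 highest genes per kilobase joined the digestive, antimicrobial and antigen-presenting equipment of phagocytes to genes that every cell uses. Lysosomal genes among them were Psap, the precursor of the saposins that activate lysosomal enzymes, at 4132 ± 373 CPM/kb (SD, n = 3), Ctss, the cathepsin that trims the invariant chain, at 2163 ± 286, and Cst3, an inhibitor of cathepsins, at 1136 ± 267. Antimicrobial and interferon-linked genes were Lyz2, Ifitm3, a membrane protein that blocks viral entry, at 1915 ± 237 CPM/kb, and Mpeg1, the pore-forming perforin-2, at 1269.8 ± 208. Antigen presentation gave B2m, the light chain of MHC class I, at 2484 ± 290.2 CPM/kb, the heavy chain H2-D1 at 1375 ± 233, and Cd74. Tyrobp (DAP12), an adapter that carries an activating motif for many receptors, stood at 1213 ± 145 CPM/kb, and Apoe, a carrier of lipids, at 1236 ± 243. The remainder included Chil3, Plac8, S100a4, the actin gene Actb, Tmsb4x, which encodes the actin-binding peptide thymosin beta 4, the ferritin chain Ftl1, the antioxidant enzyme Gpx1, Tpt1, the translation factors Eef1a1 and Eef2, the ribosomal protein genes Rplp1 and Rplp0, and Rn18s, a ribosomal RNA. Within these 25 the levels of neighbours mostly overlapped, and the step from Lyz2 to Psap did not, since the lowest library of Lyz2 (13358 CPM/kb) lay above the highest of Psap (4561).

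Chil3 was the least even of the leading genes. It stood at 4028, 1939 and 699 CPM/kb in replicates 1, 2 and 3, and at 505 to 1473 CPM/kb in the other 15 libraries of the series. Replicates 1 and 2 therefore lay above every other library, and replicate 3 lay among them. Its WT PBS mean of 2222 CPM/kb was 1319 without replicate 1 and 2984 without replicate 3. Rn18s stood at 1441, 1205 and 644 CPM/kb, below the median of 4191 in the other 15 libraries, which reached 17362.

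**Figure D3:**
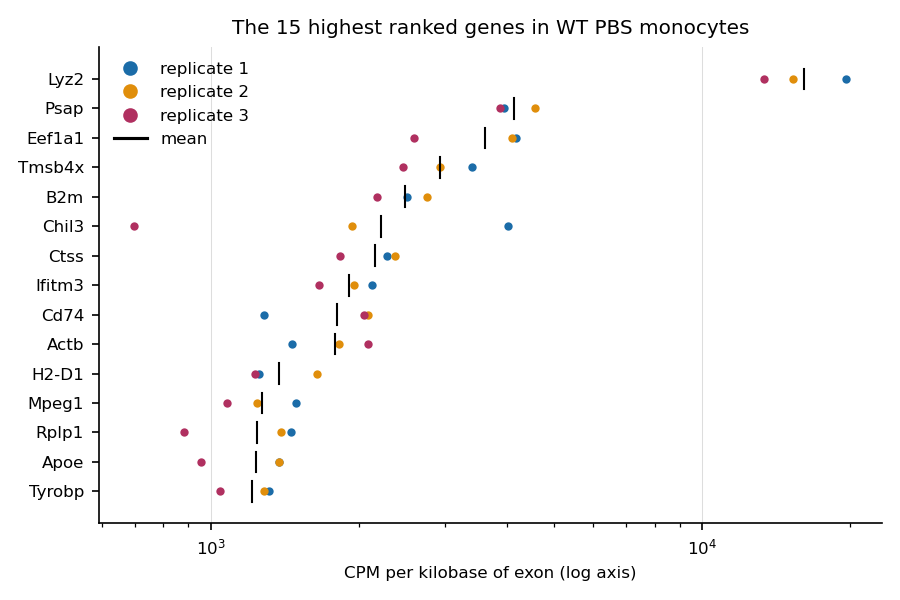
Level of the 15 highest ranked genes in each of the 3 WT PBS libraries (x axis, CPM/kb, log scale; y axis, genes in order of their mean); points are libraries and bars are means. Lyz2 lies apart at 13358 to 19655 CPM/kb, Chil3 spans 699 to 4028, and replicate 3 is the lowest library for all genes shown except Cd74 and Actb.

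To show what lies in front of such genes, RefSeq promoter windows (GRCm38.p6, 300 bases, 250 before to 50 after the start) were searched on both strands for GAGGAAG, a core that PU.1 is known to bind. The letters were found in 13.6% of 20963 windows, in 18.4% of the 343 windows of genes at 100 CPM/kb or more and in 13.5% of the 7998 windows of genes with no count. Among the monocyte markers 4 of the 10 with a window held them, namely Adgre4, Ctss, Fcgr1 and Itgam. Windows of Lyz2, Clec7a, Fcer1g, Cybb, Mpeg1, Cd68 and Ms4a6c held no match, which says only that these letters are not there. Shown are the window of Lyz2, as the first gene of the ranking, and those of Ctss and Fcgr1, chosen after the search because they hold a match on the reverse strand (CTTCCTC in capitals, from base 250 and base 195 of the window). They lie at chr10:117282223-117282522 on the minus strand (Lyz2), chr3:95526536-95526835 on the plus strand (Ctss) and chr3:96293920-96294219 on the minus strand (Fcgr1).
Lyz2: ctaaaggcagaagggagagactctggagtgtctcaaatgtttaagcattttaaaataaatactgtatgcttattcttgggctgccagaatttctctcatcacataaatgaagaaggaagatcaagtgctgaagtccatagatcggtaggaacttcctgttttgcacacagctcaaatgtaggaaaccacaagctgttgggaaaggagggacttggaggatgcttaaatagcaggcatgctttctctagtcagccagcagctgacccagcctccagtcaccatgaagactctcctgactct
Ctss: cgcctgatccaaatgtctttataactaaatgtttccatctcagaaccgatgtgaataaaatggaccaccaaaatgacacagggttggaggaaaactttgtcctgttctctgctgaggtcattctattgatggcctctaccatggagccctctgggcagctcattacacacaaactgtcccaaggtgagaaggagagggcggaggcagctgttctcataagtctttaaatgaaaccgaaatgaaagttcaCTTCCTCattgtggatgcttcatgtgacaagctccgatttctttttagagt
Fcgr1: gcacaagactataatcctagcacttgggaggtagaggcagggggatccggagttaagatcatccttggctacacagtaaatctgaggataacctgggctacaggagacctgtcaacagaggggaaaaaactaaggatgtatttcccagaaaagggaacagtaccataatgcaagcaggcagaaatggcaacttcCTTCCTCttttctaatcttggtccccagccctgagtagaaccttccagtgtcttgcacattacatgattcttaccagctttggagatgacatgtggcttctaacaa
Other letters were shared differently over the ranking. The GC box GGGCGG was in 42.3% of all windows, in 56.3% at 100 CPM/kb or more, in 66.4% at 10 to 100 and in 17.2% where there was no count. TATAAA was in 13.4%, 14.3%, 6.63% and 21.5% of the same sets, and TTNNGNAAT, the shape of a C/EBP site, in 10.9%, 8.75%, 7.27% and 15.7%. These are shares of windows and no test was made of them.

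Receptors, regulators and effectors of innate immunity were read from 23 lists that hold 573 genes of the table. Of these 97 (16.9%) averaged 100 CPM/kb or more, 304 (53.1%) averaged 10 or more, 150 averaged under 1, and 16 had no count in any library. Over all ranked genes 1.87% averaged 100 or more and 17.1% averaged 10 or more. The median was 12.04 CPM/kb for the listed genes and 0.127 for the ranked genes. By role, 27 of 234 receptors, 20 of 134 regulators and 51 of 210 effectors reached 100 CPM/kb. In 92 genes all 3 libraries were at 100 CPM/kb or more, and in 134 all 3 were under 1.

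**Figure D4:**
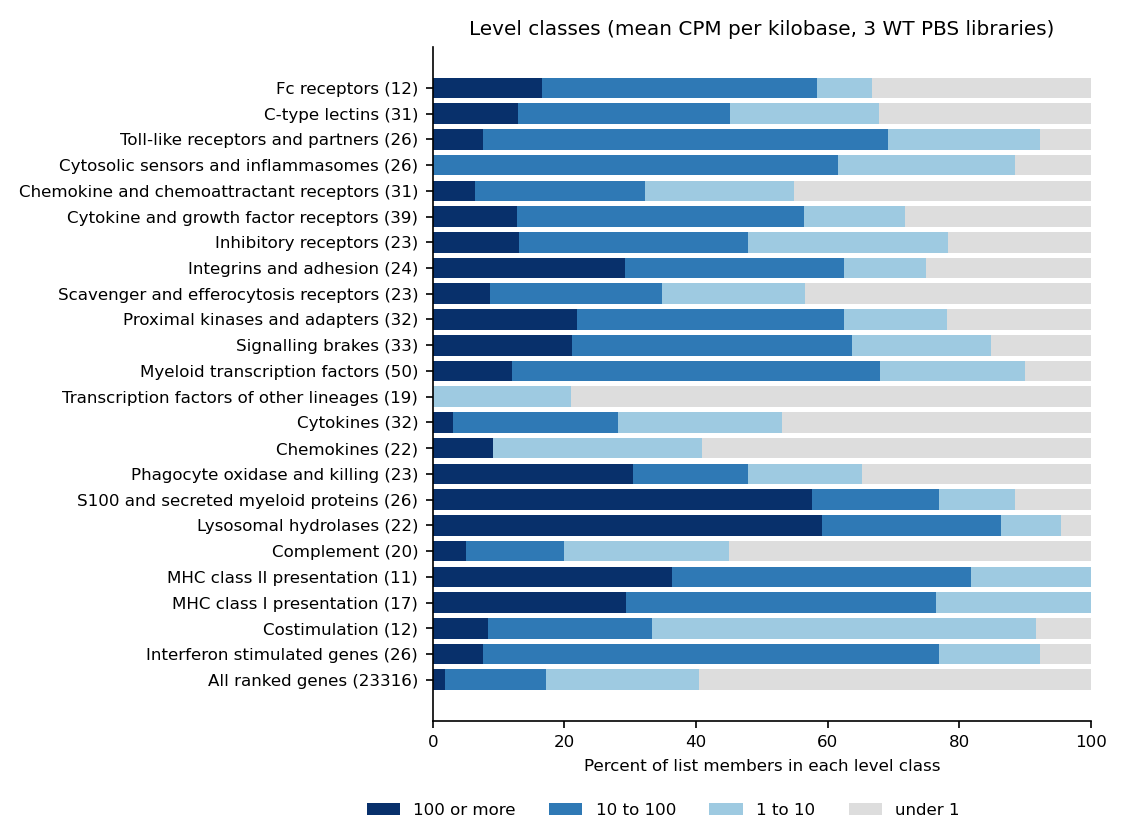
Percent of the members of each list (x axis) whose mean level over the 3 WT PBS libraries was 100 CPM/kb or more, 10 to 100, 1 to 10 or under 1; the number of members is in parentheses and the last bar holds the 23316 ranked genes. Lysosomal hydrolases (13 of 22) and S100 and secreted proteins (15 of 26) have the most members at 100 or more, and no cytosolic sensor or transcription factor of another lineage reached 100.

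Among the Fc receptors, which bind the stem of antibodies, the common gamma chain Fcer1g was the highest, at 565, 526 and 465 CPM/kb in replicates 1, 2 and 3. This chain carries the signal of the activating Fc gamma receptors. Of those receptors, Fcgr3, of low affinity, stood at 228, 214 and 184 CPM/kb, Fcgr4, which in mice binds IgG2 forms, at 59.0, 97.7 and 75.5, and Fcgr1, the high-affinity receptor, at 56.6, 67.5 and 80.0. Fcgr3 lay above the others in every library, and the libraries of Fcgr4 and Fcgr1 overlapped. The inhibitory Fcgr2b, at 46.5 ± 9.24 CPM/kb (SD, n = 3), lay below Fcgr1 in every library and overlapped with Fcgrt, the neonatal Fc receptor that recycles IgG (40.9 ± 6.84). Trim21, the receptor for antibody inside cells, stood at 11.4 ± 0.719 CPM/kb. The receptors for other antibody classes were low, with Fcmr for IgM at 1.18 CPM/kb (0.600 without replicate 3), Fcer2a for IgE at 0.462 (0.191 without it), and Fcer1a, Pigr and Fcamr at 3 counts or fewer in each library.

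Clec7a was not the highest of the 31 C-type lectins, receptors that bind sugars or self ligands. Clec4a3 and Clec4a1, of the dendritic cell immunoreceptor family, averaged 296 ± 53.1 and 236 ± 27.7 CPM/kb, and their ranges overlapped with that of Clec7a (215 ± 88.5, SD, n = 3). Replicate 1 was the highest and replicate 3 the lowest library for Clec7a, and its mean was 254 CPM/kb without replicate 3 and 167 without replicate 1. Cd209a, a relative of human DC-SIGN, was even at 123, 123 and 115 CPM/kb and lay below every library of Clec7a. The other fungal lectins were far lower, with Clec4n (Dectin-2) at 7.62 ± 2.32, Clec4d at 11.6 ± 1.18 and Clec4e (Mincle) at 11.4 ± 2.04 CPM/kb. Cd207 (langerin), which marks Langerhans cells, had no count, and 10 of the 31 averaged under 1 CPM/kb.

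By mean, the Toll-like receptors, sensors of microbial products, were led by Tlr13 and Tlr7, which sit in endosomes and read nucleic acids. Tlr13, which in mice binds bacterial ribosomal RNA, stood at 139.6, 153 and 122 CPM/kb, and Tlr7, which binds single-stranded RNA, at 96.2, 127 and 71.2. Tlr9, for DNA with CpG, averaged 41.9 ± 5.08 CPM/kb and Tlr8 37.6 ± 2.83. Unc93b1, which carries these receptors to endosomes, was higher still at 237, 198 and 220.0 CPM/kb. The double-stranded RNA receptor Tlr3 stood apart from them at 0.622 ± 0.0382 CPM/kb.
Of the receptors at the cell surface, Tlr2, for lipoproteins, averaged 56.6 ± 16.8 CPM/kb (46.9 without replicate 3) and Tlr4, for lipopolysaccharide, 7.04 ± 0.984. The lowest library of Tlr2 (45.7 CPM/kb) lay above the highest of Tlr9 (45.3) and of Tlr8 (40.4). The partners of Tlr4 were Cd14 at 21.1 ± 1.64 and Ly96 at 10.2 ± 2.61 CPM/kb. Among the adapters, Myd88 averaged 98.3 ± 21.9 CPM/kb and Ticam1 8.56. The cytosolic sensors had no member at 100 CPM/kb, with the pore-former Gsdmd at 53.8 ± 2.72 and Naip2, a sensor of bacterial secretion systems, at 46.8 ± 0.979 the highest, Nlrp3 at 15.8 ± 3.38, and Nlrp6 without a count.

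**Figure D5:**
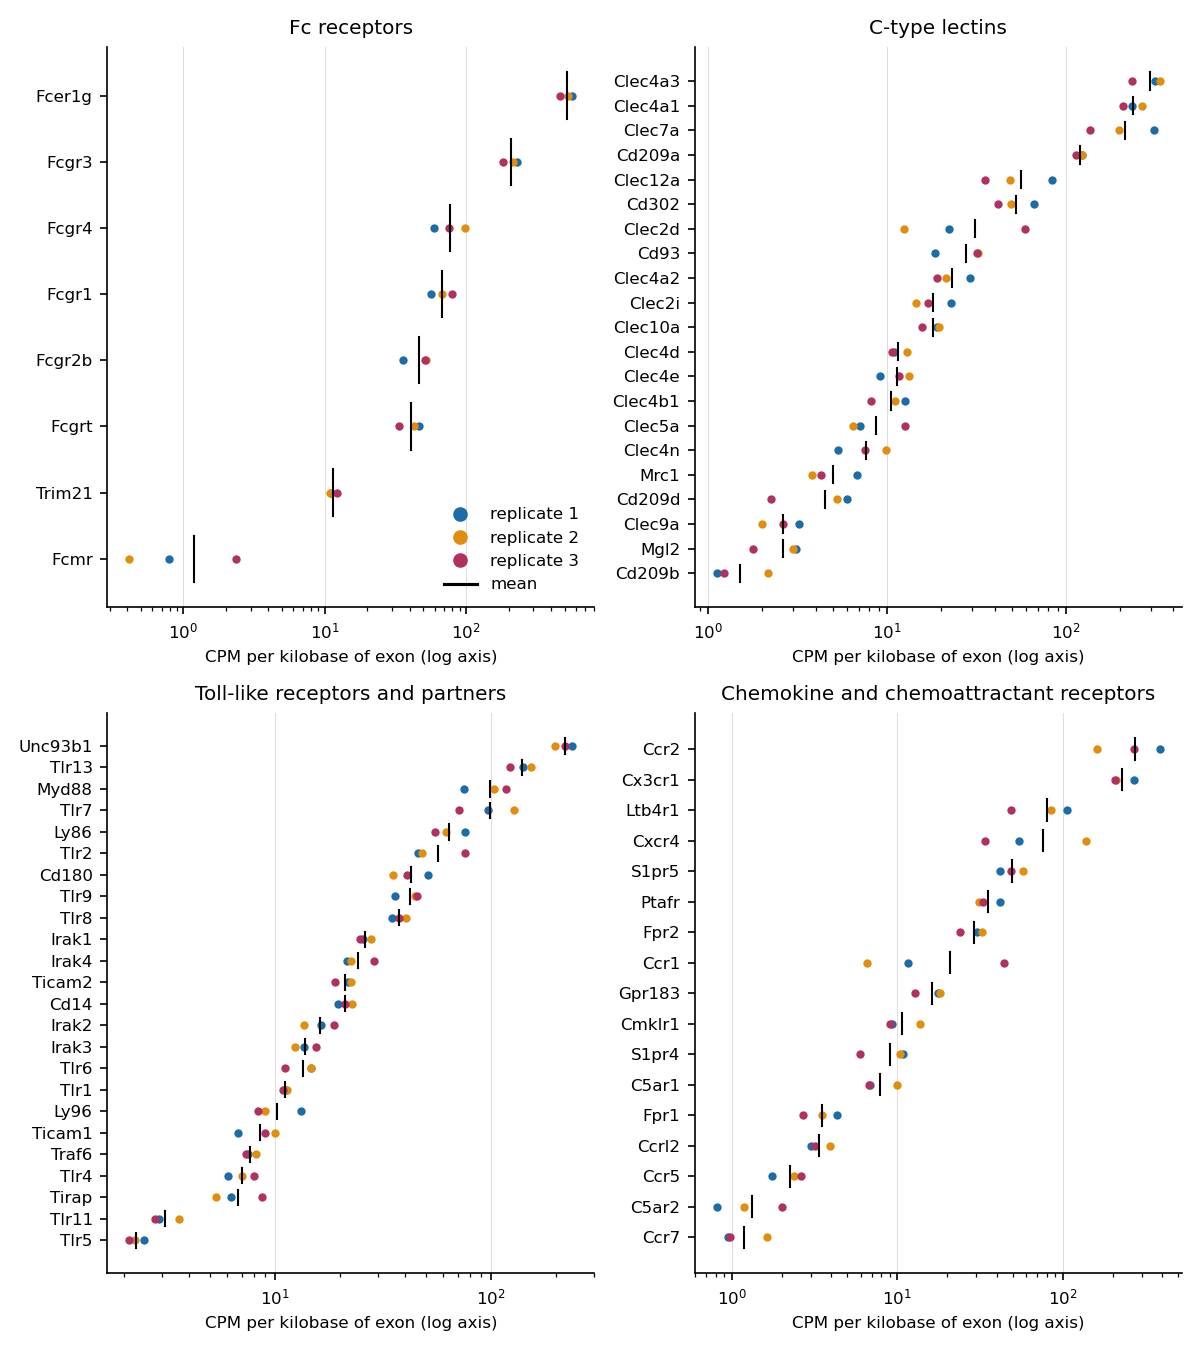
Levels of the members of 4 receptor lists with a mean of 1 CPM/kb or more in each of the 3 WT PBS libraries (x axes, CPM/kb, log scale; y axes, genes in order of their mean); points are libraries and bars are means. Fcer1g lies at 465 to 565 CPM/kb, Clec7a spans 137 to 311, Unc93b1 and Tlr13 lead their list, and Ccr2 and Cx3cr1 lead the chemokine receptors with ranges that overlap.

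The receptors that mark both monocyte subsets led the 31 chemokine and chemoattractant receptors. Ccr2, needed for monocytes to leave the bone marrow, stood at 386, 161 and 271 CPM/kb in replicates 1, 2 and 3, and Cx3cr1, the receptor for fractalkine, at 270.3, 211 and 206. Neither was above the other in all 3 libraries, since replicate 2 had more Cx3cr1. Cxcr4, which holds cells in the marrow, was uneven at 54.5, 139 and 33.8 CPM/kb (mean 75.6, or 44.2 without replicate 2), and S1pr5, a sphingosine-phosphate receptor of patrolling monocytes, averaged 49.4 ± 8.13. Ccr1 was high in replicate 3 alone, at 11.5, 6.56 and 44.2 CPM/kb, and its mean of 20.8 was 9.06 without that library. Of the 31 receptors 14 averaged under 1 CPM/kb, Ccr8 and Cxcr1 had no count, and Cxcr2, the receptor of neutrophils for CXC chemokines, stood at 0.548.

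Cytokine receptors were led by Tnfrsf1b, Csf1r and Ifngr1. Csf1r stood at 409, 481 and 428 CPM/kb, with 15.1% of its exon bases shared with a neighbouring gene, and Ifngr1, a chain of the interferon gamma receptor, at 393, 411 and 257. Both tumour necrosis factor receptors were high, with Tnfrsf1a at 146 CPM/kb, and Il10ra, a chain of the interleukin-10 receptor, averaged 126 ± 8.09. The signalling receptor for interleukin-1, Il1r1, stood at 0.0365 CPM/kb and the decoy Il1r2 at 0.937, so the decoy had the higher level. The means of Il2ra, Il7r and Il5ra, receptors of lymphocytes and eosinophils, lay between 0.0104 and 0.274 CPM/kb.

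Of 23 inhibitory receptors, which restrain phagocytes, 3 averaged 100 CPM/kb or more. Sirpa, which reads CD47 on other cells, stood at 218, 185 and 218 CPM/kb, Vsir (VISTA) at 189.8, 166 and 170.0 and Cd300a, which binds lipids of dying cells, at 135, 176 and 121. Pirb, a receptor for MHC class I, averaged 82.1 ± 6.77 CPM/kb. Siglec1, a sialic acid receptor induced by interferon, stood at 10.5, 10.4 and 12.5 CPM/kb, and all 15 libraries of the other groups lay at 8.61 or below. The share of listed genes that lie outside all other libraries in this way is not given here.
Integrins were led by Itgb2, the beta chain of the leukocyte integrins, at 569, 708 and 616 CPM/kb. Its partner chains Itgal and Itgam averaged 272 ± 59.6 and 182 ± 13.1 CPM/kb, and 68.7% of the exon bases of Itgam are shared with the gene model Gm49368, so its level is uncertain. Itgae, of intraepithelial lymphocytes, stood at 0.0134 CPM/kb. In the scavenger list Cd68, a lysosomal glycoprotein, stood at 260.5, 295 and 238 CPM/kb and Treml4 at 84.3, 135 and 141. Among receptors for dying cells, Axl averaged 20.7 ± 3.15 CPM/kb, while its relatives Mertk and Tyro3 stood at 0.636 and 0.00117 and Timd4 at 0.386. Lrp1, which takes up lipoproteins and dying cells, averaged 61.1, or 44.2 without replicate 3, and 10 of the 23 members averaged under 1.

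In the signalling machinery below these receptors, the adapters Tyrobp and Fcer1g had the highest levels. Of the kinases of the Src family, Lyn averaged 232 ± 17.9 CPM/kb and Fgr 189 ± 7.68, and their lowest libraries lay above the highest of Syk, the kinase that docks on activating motifs (51.3, 67.1 and 102 CPM/kb). Card9, which links Dectin-1 and Syk to NF-kB, averaged 22.4 ± 10.4 CPM/kb (16.5 without replicate 3), and its partners Bcl10 and Malt1 averaged 26.8 and 7.38. The lymphocyte members were near the floor, with Zap70 of T cells at 0.0707 and Blnk of B cells at 0.190 CPM/kb. The Src family members Fyn and Src stood at 18.6 and 0.0861 CPM/kb. Prkcd, a protein kinase C, and Plcg2, a phospholipase, averaged 158 ± 36.9 and 123 ± 16.6, and both lay above Syk in every library.
Of the brakes on these pathways, the phosphatase Ptpn6 (SHP-1), which acts from inhibitory receptors, stood at 299, 235 and 296 CPM/kb. Inpp5d (SHIP1), the lipid phosphatase through which FcgRIIb acts, averaged 41.0 ± 5.78 CPM/kb and lay below every library of Ptpn6. Rgs2, a brake on G protein signals, averaged 193 ± 33.6 CPM/kb and Nfkbia, the inhibitor of NF-kB, 132 ± 29.4. Socs3, an inhibitor of cytokine signals, was high in replicate 3 alone (16.4, 20.99 and 64.1 CPM/kb, mean 33.8, or 18.7 without it), and Socs1 stood at 0.814.

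Among 50 myeloid transcription factors 34 averaged 10 CPM/kb or more, and none of 19 factors of other lineages did. Spi1 (PU.1) had the highest mean, at 237, 258 and 229 CPM/kb. Cebpb, a factor of late monocyte maturation with 20.7% of its exon bases shared with Tmem189, stood at 269, 154 and 171 CPM/kb, Klf2 at 222, 208 and 125, Nr4a1 at 166, 191 and 161, and Irf5 at 172, 169.7 and 160.2. The range of Cebpb overlapped with that of Spi1, and Cebpb was the higher of them in replicate 1. The ranges of Cebpb, Klf2, Nr4a1 and Irf5 overlapped too, so no order among these holds over all libraries. Klf4, a factor of monocyte differentiation, averaged 83.4 ± 8.75 CPM/kb and Irf8 58.2 ± 12.1.
Immediate early factors were split. Junb averaged 129 CPM/kb and Fos 20.4, while Egr1 stood at 0.493, 0.389 and 1.34 and Nr4a2 and Nr4a3 at 0.0526 and 0.0903. Pparg, a lipid-activated factor, stood at 9.29, 10.96 and 7.57 CPM/kb, below all 15 other libraries, which lay between 11.2 and 23.7. As for Siglec1, the share of listed genes that do so is not given here. Gata1, of red cells, had no count, Pax5 of B cells stood at 0.239 CPM/kb (0.0376 without replicate 3) and Tcf7 of T cells at 0.745. The highest of this list, Foxp3 at 3.60 CPM/kb, shares 31.5% of its exon bases with other genes.

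Cytokine genes were mostly low. Tgfb1, a cytokine stored as a latent protein, was the only one of 32 at 100 CPM/kb or more, at 100.4, 111 and 111. Tnfsf13 (APRIL) followed at 70.0 CPM/kb, with 60.1% of its exon bases shared with overlapping genes. Il1b stood at 9.77, 18.7 and 51.8 CPM/kb, highest in replicate 3, and its mean of 26.7 was 14.2 without it. Tnf stood at 0.733, 1.58 and 3.53 CPM/kb in the same order of libraries, with a mean of 1.95, or 1.16 without replicate 3. Il6, Il10, Il12a and Ifng had 3 counts or fewer in each library, and Il23a, Ifnb1, Csf2 and Csf3 had none.
Chemokines were split into a pair at high level and a remainder under 10 CPM/kb. Ccl6 stood at 627, 473 and 372 CPM/kb and Ccl9 at 231, 186 and 161, both of a rodent family made by resting myeloid cells. Cxcl10, which is induced by interferon, averaged 8.14 CPM/kb. Ccl2, the ligand of CCR2, stood at 1.08, 0.326 and 3.92 CPM/kb, with a mean of 1.77, or 0.703 without replicate 3. The neutrophil attractants Cxcl1, Cxcl2 and Cxcl3 had no count, nor did Ccl7 and Cxcl13.

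The oxidase that makes superoxide in phagocytes was present in both its membrane and its cytosolic parts. Its membrane subunits Cybb and Cyba averaged 602 ± 74.6 and 584 ± 75.9 CPM/kb, and its cytosolic subunits Ncf1 and Ncf4 averaged 91.5 ± 18.2 and 85.2 ± 9.98 (SD, n = 3). The lowest library of either membrane subunit (521 CPM/kb) lay above the highest of these cytosolic ones (107). The enzymes that mark activated macrophages were low, with Nos2, which makes nitric oxide, at 0.00164 CPM/kb, Arg1 at 0.0426 and Acod1 at 0.357. Of the granule enzymes of immature myeloid cells, the proteases Prtn3, Ctsg and Elane stood at 2.13, 0.575 and 0.496 CPM/kb and the peroxidase Mpo at 0.102. Lyz1, the gut lysozyme that lies beside Lyz2 and is nearly identical to it, stood at 293 CPM/kb, and reads of such a pair may be placed on either gene.

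Secreted and calcium-binding proteins had the highest median of the 23 lists of receptors, regulators and effectors, 206 CPM/kb over 26 genes. Fn1 (fibronectin) stood at 428, 276 and 383 CPM/kb, F13a1, a clotting factor subunit of classical monocytes, at 336, 173 and 249, and Ear2, a ribonuclease of non-classical monocytes, at 287, 291 and 188. The alarmins S100a8 and S100a9 were far below S100a4, S100a6, S100a10 and S100a11, which averaged 168 to 1009 CPM/kb. S100a9 stood at 30.3, 27.4 and 1.57 CPM/kb and S100a8 at 15.2, 16.6 and 1.28, so both were about level in replicates 1 and 2 and low in replicate 3, and without that library they averaged 28.8 and 15.9. In the other 15 libraries S100a9 ran from 0 to 788 CPM/kb. The neutrophil marker list, which holds S100a8 and S100a9 themselves, summed to 171, 129 and 108 CPM/kb in replicates 1, 2 and 3. This sum is therefore not independent of the S100 levels, and the part of neutrophils in them was not tested. Of 22 lysosomal genes 13 averaged 100 CPM/kb or more, Lamp1 at 438 ± 56.4 and Ctsb at 378 ± 42.7 among them, and the osteoclast cathepsin Ctsk stood at 0.213.

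In the MHC class II list Cd74 was followed by H2-Eb1 at 472, 808 and 585 CPM/kb, H2-Ab1 at 447, 728 and 565 and H2-Aa at 276, 435 and 324. Replicate 1 was the lowest and replicate 2 the highest for all 3 chains, and the list took 0.590%, 0.939% and 0.841% of counts in replicates 1, 2 and 3. Ciita, the factor that switches these genes on, stood at 5.44, 10.9 and 19.8 CPM/kb, in another order of libraries. Class I presentation gave H2-K1 at 599.8 ± 102 CPM/kb beside B2m and H2-D1, with the heavy chains so alike that reads may be placed on either. Costimulation was led by Cd48, the ligand of CD244, at 164, 151 and 112 CPM/kb, and the ligands of CD28 were low, with Cd86 at 8.63 ± 2.18 and Cd80 at 3.00.
Of 20 complement genes 11 averaged under 1 CPM/kb, and the highest were C3, the central component, at 216, 181 and 277, and Cfp, which encodes properdin, at 61.9. The C1q chains C1qa, C1qb and C1qc, products of tissue macrophages, averaged 4.36, 5.74 and 1.45 CPM/kb. Of 26 interferon stimulated genes 20 averaged 10 CPM/kb or more in these PBS libraries, led by Ifi27l2a at 596, 590.4 and 470.0, with Isg15, a ubiquitin-like modifier, at 55.7 ± 11.8 and Iigp1 at 0.201.

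The spread between the WT PBS libraries was modest for most genes. Of the 8634 genes at 10 CPM or more, 6062 (70.2%) had a ratio of the highest to the lowest library under 1.5 and 809 (9.37%) a ratio over 2, with a median of 1.34. Of 377 listed genes at that level 223 (59.2%) had a ratio under 1.5 and 48 (12.7%) one over 2, with a median of 1.44. In 14 of the 377 (3.71%) replicate 3 was over 2 times both others, and it was so in 315 of the 8634, a like share. Among the 14 were Ccr1, Cd300lf, Clec2d, Il1b, Il21r, Lrp1, Mx1, Nfkbiz, Nlrc5, Oas2, Pou2f2, Socs3 and Thbs1. Replicate 3 was under 0.5 times both others for Chil3 and S100a9. Replicate 2 was over 2 times both others for Cfb, Cxcr4, Dusp1 and H2-Eb2, and replicate 1 for Chil3.

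Large ratios were also found outside the lists. Lpl, lipoprotein lipase, stood at 35.3, 11.4 and 2.35 CPM/kb in replicates 1, 2 and 3, and the other 15 libraries lay between 3.60 and 14.1. The Lpl mean of 16.3 CPM/kb was 6.86 without replicate 1 and 23.3 without replicate 3. Fkbp5, a chaperone partner that is induced by glucocorticoids, was high in replicate 2 alone among the WT PBS libraries, at 4.49, 47.1 and 3.56 CPM/kb. Its mean was 4.03 without that library. In the other groups Fkbp5 stood at 29.9 in Dectin-1 knockout IVIg replicate 2 and 13.4 in WT IVIg replicate 2, and at 5.46 or below elsewhere.
Sp110, a nuclear body protein, stood at 0.926, 1.04 and 16.6 CPM/kb, with a median of 14.9 in the other 15 libraries, so replicates 1 and 2 were the low ones, and its mean of 6.20 was 0.986 without replicate 3. The long genes Macf1, Golgb1, Bod1l, Prrc2c and Akap9 were over 10 times higher in replicate 3 than in the lowest library. Macf1 stood at 1.28, 1.12 and 14.9 CPM/kb (mean 1.2 without replicate 3), and in the other 15 libraries at 21.6 or below, with WT IVIg replicate 1 the highest.
Emp1, a membrane protein, was low in replicate 3 instead, at 4.12, 4.35 and 0.418 CPM/kb.
The most even genes were Pdk1, Zyg11b, Rtf2, U2af1 and Fxr1, whose highest and lowest libraries differed by 1.01 times.

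The WT PBS levels were set against 3 other groups by edgeR's quasi-likelihood test over 17040 genes, of which 528 were listed receptors, regulators or effectors. The comparisons share the WT PBS libraries. Against Dectin-1 knockout PBS, 7 of all genes tested were called (0.0411%) and 1 of the 528, Clec7a. In WT PBS its level was 215 ± 88.5 CPM/kb (SD, n = 3), and the knockout libraries held 0.850, 0.895 and 1.54. It differed by -7.65 ± 0.43 on the log2 scale (SE, edgeR adjusted p = 4.72e-09), lower in 3 of 3 libraries. At an unadjusted p under 0.05 there were 29 listed and 690 of all genes. The median log2 difference was -0.04 over the listed genes and -0.02 over all genes tested.

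Against WT IVIg edgeR called 0 of the 528 genes and 1 of all genes tested (0.00587%), the gene model Gm9574. At an unadjusted p under 0.05 there were 36 listed and 429 of all genes, and DESeq2 called 0 listed genes. The median log2 difference was -0.03 over the listed genes and 0.01 over all genes tested. The smallest unadjusted p among the listed genes belonged to Pparg, at 9.27 ± 1.69 CPM/kb with PBS and 19.8 ± 3.80 with IVIg (SD, n = 3 each), a log2 difference of 1.09 ± 0.24 (SE, edgeR adjusted p = 1). Ccr1 stood at 20.8 ± 20.5 CPM/kb with PBS and 4.13 ± 1.48 with IVIg (edgeR adjusted p = 1), and its PBS mean rests on replicate 3.

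Against FcgRIIb knockout PBS edgeR called 0 of the 528 genes and 0 of all genes tested (0%), with 76 listed and 1644 of all genes at an unadjusted p under 0.05. DESeq2 called 179 of all genes and 9 listed genes, Ccr9, Cd209a, Cd48, Clec4a2, Clec4b1, Maf, Nr4a2, Siglec1 and Vav3. The median log2 difference was -0.09 over the listed genes and -0.05 over all genes tested. Cd209a stood at 123, 123 and 115 CPM/kb in WT PBS and at 212.6, 238 and 198 in the libraries labelled FcgRIIb knockout PBS. For this gene the groups did not overlap (log2 difference 0.83 ± 0.23, SE, edgeR adjusted p = 0.475). Cd209a was named for its small unadjusted p, and that choice favours genes whose groups lie apart. The share of listed or of all genes that do so is not given here. Siglec1 stood at 11.1 ± 1.15 CPM/kb in WT PBS and 2.35 ± 2.68 in that knockout group (edgeR adjusted p = 0.458). Replicate 2 of that knockout group held 719494 counts. Without replicate 1 of the group edgeR called 3 of 533 listed genes, Cd48, Clec4b1 and Siglec1, and 40 of all 18161 genes tested. That fit keeps the library of 719494 counts. Fcgr2b itself stood at 23.7, 42.8 and 32.3 CPM/kb in those libraries, a range that overlaps with the 35.9 to 52.1 of WT PBS, so counts over all its exons do not set the groups apart, and the exons that the allele removes are not named in the labels.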

How the data were processed

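Raw counts of read pairs per gene, with the exon length of each gene, were deposited by the authors as 1 table, and the file header records featureCounts 2.0.2 with the genes of Ensembl release 104. STAR and GRCm39 are named in the submitters' processing notes, and a stranded messenger RNA kit in the labels' protocols. The recorded command sets no strand option, counts a pair for each gene it overlaps and counts primary alignments only, so overlapping, antisense and near-identical genes are not separated. No sample of the series matched 18 further deposited columns, which were left aside.

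From the counts, CPM was computed with library sizes scaled by TMM in edgeR 4.0.16 (R 4.3.3) and divided by the deposited exon length. Genes passing filterByExpr (17040) were tested by edgeR's quasi-likelihood F-test in 1 model over 18 libraries, with a call where the p-value after Benjamini-Hochberg adjustment over all of them was under 0.05. The standard errors were derived from the F statistic and are approximate. The p-values weigh a difference between groups against the spread of libraries within groups, estimated over all groups of the model. Tables and figures were made in Python 3.11.15 (pandas 2.3.3, matplotlib 3.10.9). Promoter windows came from RefSeq, 1 per symbol, and gave no coordinates for the counts, which are on another build.

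The genes named are the 25 highest, up to 6 highest and 4 lowest of each list with those of 3 counts or fewer, the 10 least and 5 most even, and the 6 smallest p-values of each comparison. Some genes that this rule names are not reported here. Further list members were named for their role after their values were seen. The gene lists and tests were chosen with earlier results of these data known. Replicates were numbered by accession, as names of the libraries. Alternatives were total counts without TMM, TPM computed from the counts, a shortened exon length, RLE size factors, no low-count filter, the legacy fit, own groups only, leaving out the shallow library, leaving out mitochondrial genes, DESeq2 1.42.0 and each library left out.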

Additional observations from a re-analysis of the deposited data

How the results depend on the processing

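Of the leading 25 genes 24 to 25 were shared with the reported order under every alternative for levels. The number of genes at 1 CPM/kb or more, 11786 as reported, ran from 11664 to 11920 with a replicate left out. It was 11891 without TMM, 12380 with the shortened exon length and 13983 at 1 or more on the TPM scale. On the TPM scale, 180 listed genes stood at 100 or more in place of 97, since that scale sums to a fixed total and its values are larger. Several means moved by over 1.5 times without 1 library, with the values of Chil3, Lpl, Fkbp5, Il1b and others given above. Taking 200 bases from each length raises every level by construction, and for 19 of 57 genes by more than 1 SD. Without TMM 5 of them moved by more than 1 SD, the genes named as most even, whose SD is small.

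The count of listed genes called against WT IVIg was 0 under all alternatives. Against Dectin-1 knockout PBS it was 1 as reported and 1 with any replicate left out. With own groups only it was 2 of 506 (Clec7a and Ear2), where 9 of all 15009 genes tested were called. Against FcgRIIb knockout PBS it was 0 as reported, 9 with DESeq2 and 0 to 3 with a replicate left out. Over all genes tested edgeR called 9 with no low-count filter, 9 with own groups only and 40 without FcgRIIb knockout PBS replicate 1, in place of 0. The cause was not tested. No paired analysis was possible because the replicate numbers follow accession order and the labels do not say which animals a shared code would pair. Depth was not limiting for WT PBS, where 3 counts are under 0.1 CPM, but it is for the library with 719494 counts.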

Other observations

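Of 34 genes at over 2 times both other WT PBS libraries in replicate 1, 26 carried pseudogene or gene model names, and the median exon length of the 34 was 669 bases. In replicate 2 this was 1 of 22 and in replicate 3 it was 17 of 315. Gene models named Gm or Rik and genes without a symbol took 4.18%, 4.15% and 4.09% of counts in replicates 1, 2 and 3.

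Immunoglobulin genes took 0.0341%, 0.0339% and 0.0316% of counts in replicates 1, 2 and 3, and haemoglobin genes 0.000369%, 0.000568% and 0.000929%. Of the non-classical monocyte markers, Apoc2 stood at 74.7 to 86.1 CPM/kb in WT PBS and above it in all 15 other libraries (86.4 to 167). It shares 79.5% of its exon bases with Gm44805, and how many markers lie apart in this way is not given here.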
